A study of Mus musculus with 4 samples.

Results

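The genes described here make, degrade and read the cyclic nucleotides that hold platelets at rest. The named genes were 9: Gucy1a1, Gucy1b1, Pde3a, Pde5a, Pde2a, Prkg1, Mrvi1, Vasp and Adcy6, taken by gene symbol. Of these, 8 had a row in both expression tables, which together list 17995 genes, and Pde2a, with a row in neither, was not analysed here. Pde2a shares 64.3% of its exon bases with Gm45837, a protein-coding gene on the same strand. The handling of shared reads is not given, so the missing row is no measure of its level. The genes were selected on the deposited values of these same 4 libraries, so the levels and ratios below are descriptions and carry no test.

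Platelets of male mice were sequenced in 4 libraries, 1 for each group, and each library pooled 7 mice. The WT and HuR cKO libraries came from littermates at 3 months of age. The knockout is conditional and described as platelet-specific. HuR is an RNA-binding protein encoded by Elavl1, and no source used here names the Cre driver. The Young library came from mice of 3 months and the Old library from mice of 24 months, both with the WT genotype. The libraries held between 17702341 and 18472149 reads. No group has a second library, so differences have no replicate check, and the 95% intervals given below cover counting error only. They leave out the spread between pools, and amplified reads that carry no molecular identifier are not separate molecules. The words rose and fell are kept for genes with 100 reads or more in 1 of the 2 libraries compared and an interval that lies wholly beyond a 2-fold difference.

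Elavl1, the targeted gene, did not have fewer reads in its knockout: WT held 876 and the library labelled cKO 1481, with 621 in Young and 527 in Old. Against WT this was a ratio of 1.66 (1.53 to 1.81), so the reads do not show the lower level that the genotype label implies. WT was itself at 1.54 (1.39 to 1.71) of Young. Against Young, Elavl1 rose in the library labelled cKO, at 2.62 (2.38 to 2.88), beside 2.07% of all genes with enough reads. The reason was not tested, and directions are given for the library labelled cKO only. All 18 platelet markers were detected in every library and held 6.32% to 8.19% of reads. Erythroid markers took 0.832% of reads in WT and 1.63% in the library labelled cKO, with 2.16% in Young and 1.13% in Old. Neutrophil markers held at most 0.00685% outside Old and 0.0841% in Old. Endothelial markers held 0.0564% to 0.0674%, monocyte markers 0.233% to 0.353%, B cell markers 0.00754% (Old) to 0.0326% (WT) and T and NK cell markers 0.00508% to 0.00957%.

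Nitric oxide released by the vessel wall enters platelets and activates soluble guanylyl cyclase, a heterodimer of the alpha chain made by Gucy1a1 and the beta chain made by Gucy1b1. The cyclic GMP it makes activates the kinase encoded by Prkg1, which phosphorylates the calcium-release brake IRAG (Mrvi1) and the actin regulator VASP. Prostacyclin acts in parallel through adenylyl cyclases such as Adcy6, cyclic AMP and protein kinase A. PDE5A degrades cyclic GMP, PDE3A degrades cyclic AMP and is inhibited by cyclic GMP, and PDE2A is a phosphodiesterase stimulated by cyclic GMP.

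HuR binds AU-rich stretches of messenger RNA, so the AU-rich pentamer ATTTA was counted in the longest 3′ UTR of each gene (GENCODE M21, GRCm38, the assembly also called mm10). For each of the 3 genes that fell 1 site is shown. For contrast, 1 site each is shown for Mrvi1, which did not fall, and Prkg1, which had too few reads to be called. Each is a 30-base window in the transcript's orientation, 5′ to 3′, with the pentamer in capitals.
Pde3a, bases 6733 to 6762 after the stop codon: tttcattttaattATTTAtatacatactca
Gucy1a1, bases 1733 to 1762 after the stop codon: cttgcgaaggtctATTTAtgatgtcacaat
Gucy1b1, bases 517 to 546 after the stop codon: gggaaaaaaggcaATTTAtttgtagacttc
Mrvi1, bases 1736 to 1765 after the stop codon: tactgtctaacttATTTAtatatctgtctc
Prkg1, bases 827 to 856 after the stop codon: gccaattggttttATTTAttacctaacatc
In all of these but Gucy1b1 the pentamer lies within the longer string TATTTAT. This follows from the choice of site, which was the first TATTTAT where the 3′ UTR held one, and otherwise the first ATTTA. Among genes of like 3′ UTR length, 44.7% held TATTTAT for Gucy1a1, 85.7% for Pde3a, 54.4% for Mrvi1 and 65.8% for Prkg1.

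The pentamer was found in the 3 genes that fell and in 4 of the other 5, of which Prkg1 had too few reads to be called. For the genes that held it, 81.5% (Gucy1b1) to 99.6% (Pde3a) of genes of like 3′ UTR length had a copy. Its presence was thus near the background. Gucy1a1 held 8 copies in 2268 bases, against a median of 4 in genes with a 3′ UTR of like length, 16.3% of which held at least as many. Gucy1b1 held 4 copies in 1249 bases, against a median of 2, and 27.0% of genes of like length held at least as many. Pde3a, with the longest 3′ UTR of the set, held 18 copies in 8555 bases against a median of 16.0, and 42.9% of like genes had at least that number. The counts in the other genes overlapped these. Prkg1 held 14 copies in 4749 bases (median 8), Pde5a 4 in 4042 (median 7), Mrvi1 3 in 3089 (median 5) and Adcy6 3 in 2377 (median 4). Of genes of like length, 19.0% held at least as many as Prkg1, 80.3% as Pde5a, 80.0% as Mrvi1 and 69.5% as Adcy6. Vasp held none in 788 bases, where 66.1% of genes of like length have a copy. A copy of the pentamer is a match of letters and no measurement of binding.

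Upstream sequence is shown for Gucy1b1, which fell in the library labelled cKO, and for Vasp, whose ratio lay on the other side of 1. Each is the 250 bases before the RefSeq start on GRCm38.p6, read on the minus strand, at chr3:82074712-82074961 for Gucy1b1 and chr7:19271855-19272104 for Vasp. Capitals mark ATTGG, which is CCAAT on the other strand.
Gucy1b1: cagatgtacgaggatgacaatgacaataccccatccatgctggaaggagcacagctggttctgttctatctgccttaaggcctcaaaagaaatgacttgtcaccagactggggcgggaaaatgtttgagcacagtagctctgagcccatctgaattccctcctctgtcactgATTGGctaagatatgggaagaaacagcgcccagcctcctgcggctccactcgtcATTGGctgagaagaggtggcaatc
Vasp: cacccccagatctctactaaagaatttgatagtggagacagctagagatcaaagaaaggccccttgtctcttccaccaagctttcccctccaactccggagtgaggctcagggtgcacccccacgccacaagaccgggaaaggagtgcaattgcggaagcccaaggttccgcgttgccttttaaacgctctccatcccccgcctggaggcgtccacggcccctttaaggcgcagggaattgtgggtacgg
Both strands were searched for GATAA (bound by GATA factors), TGTGGT (RUNX factors), CCGGAAGT (ETS factors), TGACGTCA (CREB and its relatives) and CCAAT (the CCAAT-box factor), and no match overlapped another. Gucy1b1 held CCAAT at positions -78 and -24 from the start and none of the others, and Vasp held none of the 5. Neither entry of Gucy1a1, which also fell, held any of them, nor did that of Pde5a. Prkg1, which had too few reads to be called, held CCAAT at -55 and GATAA at -37 in 1 entry. Mrvi1, which did not fall, held GATAA at -82 in 1. Over all 32851 windows of this length, 33.8% held CCAAT, 22.6% GATAA, 14% TGTGGT, 2.88% CCGGAAGT and 1.55% TGACGTCA. Among the 9 genes, 7 had an entry in the RefSeq promoter table; Pde3a and Adcy6 had none.

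The 8 measured genes differed widely in abundance, which is compared here per length as RPKM, the reads scaled by gene length and library total. In WT the order was Gucy1b1 at 127 RPKM, Mrvi1 at 114, Vasp at 46.4, Pde5a at 36.2, Adcy6 at 10.4, Pde3a at 7.32, Gucy1a1 at 3.50 and Prkg1 at 0.321. Gucy1b1 and Mrvi1 were thus the most abundant in WT, and the kinase that links them was the least. In Old the order was Mrvi1 at 155, Gucy1b1 at 142, Vasp at 67.9, Pde5a at 39.4, Adcy6 at 15.5, Pde3a at 8.62, Gucy1a1 at 4.52 and Prkg1 at 0.916. In bulk platelet RNA, fewer platelets with a transcript and less of it per platelet cannot be told apart.

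**Figure D1:**
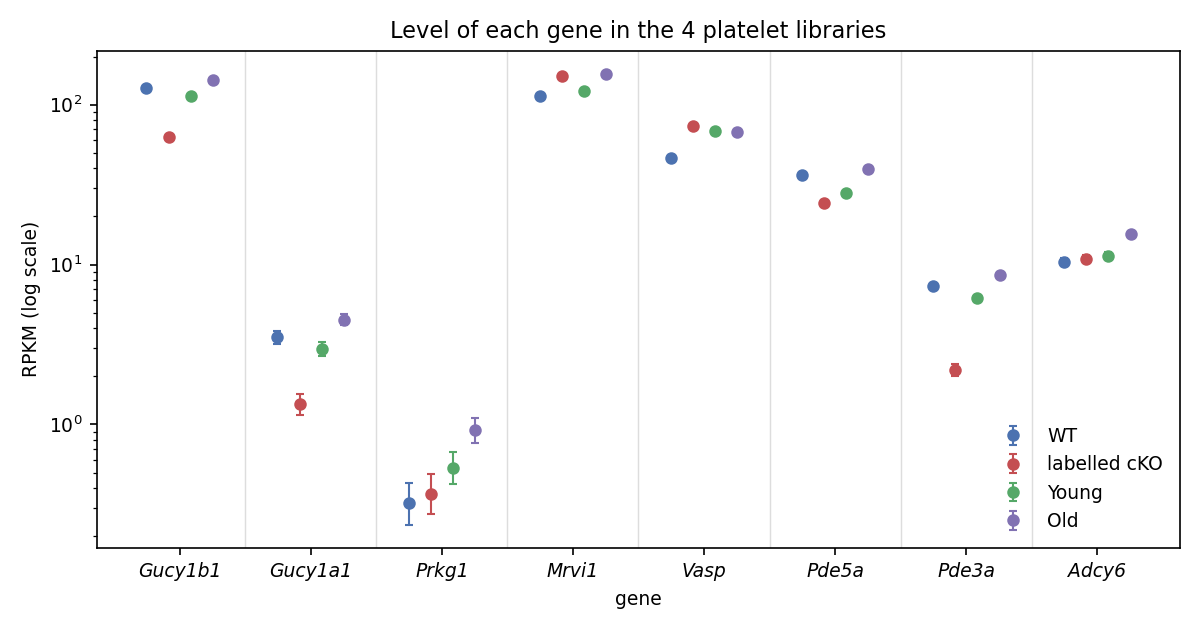
RPKM (log axis) of the 8 genes in the 4 libraries, with 1 point per library and bars for the exact 95% Poisson interval of the count, often smaller than the point. Gucy1b1, Gucy1a1, Pde5a and Pde3a were lowest in the library labelled cKO and highest in Old (WT highest for Gucy1b1 and Pde5a relative to platelet markers), while Prkg1 stayed under 1 RPKM in all 4.

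Guanylyl cyclase was lower in the library labelled cKO in both of its chains. Gucy1a1 (ENSMUSG00000033910, protein coding, minus strand of mm10 chromosome 3, 82092427 to 82145789) had 438 reads in WT and 165 in the library labelled cKO, with 376 in Young and 582 in Old. Scaled by library total (RPM) these were 24.4, 9.32, 20.7 and 31.5. The library labelled cKO stood below the other 3, and Old stood highest. Over library sizes scaled by trimmed means, the library labelled cKO stood at 0.370 (0.308 to 0.444) of the WT level, so Gucy1a1 fell 2.70-fold (2.25 to 3.25). It did not pass with platelet-marker scaling, at 0.435, nor against Young, at 0.481 (0.398 to 0.580).

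Gucy1b1 (ENSMUSG00000028005, protein coding, minus strand of chromosome 3, 82032006 to 82074689), which lies 17.7 kb from Gucy1a1 on the same strand, showed the same order of libraries. It had 8934 reads in WT and 4379 in the library labelled cKO, with 8116 in Young and 10301 in Old, or 497, 247, 447 and 558 RPM. It fell 2.08-fold (2.00 to 2.15) in the library labelled cKO against WT, with its bound at the 2-fold limit. Scaled by total reads, median of ratios, upper quartile or platelet markers, Gucy1b1 no longer passed; over all scalings tried its ratio was 0.482 to 0.566.

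The 2 chains were far from equal in RNA. Gucy1b1 over Gucy1a1, per length, was 36.2 (32.9 to 39.9) in WT and 47.1 (40.3 to 55.3) in the library labelled cKO, with 38.3 (34.5 to 42.6) in Young and 31.4 (28.9 to 34.2) in Old. The beta chain thus held 96.9% to 97.9% of the summed RPKM of the pair in every library. That sum was 130.0 RPKM in WT and 64.3 in the library labelled cKO, with 117 in Young and 147 in Old. Gucy1a2, the gene of the other alpha chain, had no row in either table and was not analysed here.

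Prkg1, the cyclic GMP-dependent kinase (ENSMUSG00000052920, protein coding, minus strand of chromosome 19, 30567551 to 31765033), was the sparsest of the genes. It had 45 reads in WT and 51 in the library labelled cKO, with 76 in Young and 132 in Old, or 2.50, 2.88, 4.19 and 7.15 RPM. Old stood above the other 3, which were not separated between neighbours: the library labelled cKO was at 1.11 (0.731 to 1.70) of WT, and Young at 1.39 (0.960 to 2.02) of the library labelled cKO. Among kinase catalytic chains, Prkaca of protein kinase A held 35.5, 51.4, 38.4 and 52.3 RPKM in WT, the library labelled cKO, Young and Old, and Prkacb 8.53, 8.47, 8.36 and 7.24. Prkg1 was 0.724%, 0.613%, 1.14% and 1.52% of the 3 together.

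Mrvi1, which encodes the kinase's substrate at the calcium store (ENSMUSG00000005611, protein coding, minus strand of chromosome 7, 110868266 to 110982461), had 14040 reads in WT and 18186 in the library labelled cKO, with 14975 in Young and 19567 in Old. These were 781, 1027, 825 and 1059 RPM. The library labelled cKO and Old stood above WT and Young, and WT and Young differed little, at 1.02 (1.00 to 1.05) for WT over Young, a ratio that crossed 1 with the scaling (0.893 to 1.05). Set against WT, the library labelled cKO was at 1.27 (1.24 to 1.30). Per length, Mrvi1 over Prkg1 was 356 (266 to 489) in WT and 407 (309.7 to 547) in the library labelled cKO, with 225 (179.7 to 286) in Young and 169 (143 to 203) in Old. The substrate's transcript thus outnumbered the kinase's by over 100-fold in each library.

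Vasp, encoding the actin regulator that both kinases phosphorylate (ENSMUSG00000030403, protein coding, minus strand of chromosome 7, 19256929 to 19271817), had 2182 reads in WT and 3390 in the library labelled cKO, with 3254 in Young and 3284 in Old. In RPM these were 121, 192, 179 and 178. WT stood apart below the other 3. Relative to WT, the library labelled cKO was at 1.53 (1.45 to 1.61), while WT was at 0.733 (0.694 to 0.774) of Young. Against Young in place of WT, the library labelled cKO was at 1.14 (1.09 to 1.2).

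Pde5a, the phosphodiesterase of cyclic GMP (ENSMUSG00000053965, protein coding, plus strand of chromosome 3, 122728947 to 122859374), had 6393 reads in WT and 4251 in the library labelled cKO, with 5025 in Young and 7156 in Old, or 356, 240.1, 277 and 387 RPM. The order of libraries was that of the guanylyl cyclase chains, with a narrower spread: Old over the library labelled cKO was 1.72 (1.65 to 1.78). The library labelled cKO was at 0.653 (0.628 to 0.679) of the WT level, which did not reach the 2-fold bound. Against Young it was 0.928 (0.891 to 0.967).

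Pde3a, the cyclic AMP phosphodiesterase held back by cyclic GMP (ENSMUSG00000041741, protein coding, plus strand of chromosome 6, 141249269 to 141507448), had the ratio farthest from 1 in the library labelled cKO over WT. It had 1677 reads in WT and 494 in the library labelled cKO, with 1421 in Young and 2028 in Old, or 93.3, 27.9, 78.3 and 109.8 RPM. The library labelled cKO stood far below the other 3, which lay within a ratio of 1.56 (1.46 to 1.67) of each other, Old over Young. Pde3a fell 3.46-fold (3.12 to 3.83) against WT, and 2.62-fold (2.37 to 2.91) against Young, a comparison chosen after the data were seen in which 0.793% of 6428 genes fell. The antisense gene Gm28523 shares 5.82% of the exon bases of Pde3a and had 28, 19, 10 and 52 reads in WT, the library labelled cKO, Young and Old. Antisense genes also share 8.92% of the exon bases of Adcy6 (Gm29331) and 1.58% of those of Mrvi1 (Gm16336), and 4930447N08Rik shares 0.559% of those of Pde5a on the opposite strand. Whether the counting used strand is not stated, so reads in these stretches cannot be told apart.

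Among phosphodiesterase transcripts, the share of Pde3a was lowest in the library labelled cKO. The 16 phosphodiesterase genes listed leave out Pde2a. Of their summed RPKM, Pde5a held 68.1% in WT and 66.6% in the library labelled cKO, with 61.9% in Young and 70.0% in Old. Pde3a held 13.8%, 5.98%, 13.5% and 15.3% in the same order. Per length, Pde5a over Pde3a was 4.94 (4.68 to 5.21) in WT and 11.1 (10.2 to 12.3) in the library labelled cKO, with 4.58 (4.32 to 4.86) in Young and 4.57 (4.35 to 4.81) in Old. The balance between the 2 enzymes' transcripts was thus close in WT, Young and Old and differed in the library labelled cKO beyond counting error.

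Adcy6, an adenylyl cyclase (ENSMUSG00000022994, protein coding, minus strand of chromosome 15, 98589973 to 98610076), had 1264 reads in WT and 1301 in the library labelled cKO, with 1387 in Young and 1942 in Old, or 70.3, 73.5, 76.4 and 105 RPM. WT, Young and the library labelled cKO could not be separated at this depth, with the library labelled cKO over WT at 1.01 (0.935 to 1.09), and Old stood above them. Of the summed RPKM of the 6 adenylyl cyclases listed, Adcy6 held 33.8% in WT and 44.2% in the library labelled cKO, with 31.0% in Young and 28.4% in Old. Adcy9 held 40.9%, 36.4%, 45.5% and 50.9%, and Adcy5 23.4%, 15.3%, 19.8% and 17.8%. Adcy6 was thus the leading cyclase transcript in the library labelled cKO and second to Adcy9 in the others.

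In the comparison of the library labelled cKO with WT, 3 of the 7 measured genes with enough reads fell, 0 rose and 4 did neither. Over all 6273 genes with enough reads, 1.71% fell and 2.52% rose, 4.22% in all. Because the genes were picked with these values known, the count is a description. Among the 6273 genes, 0.430% had a lower ratio than Pde3a, 1.07% than Gucy1a1, 3.08% than Gucy1b1 and 12% than Pde5a, while 87.7% had a lower ratio than Vasp. Pde5a did not pass, nor did Mrvi1, Vasp and Adcy6, and Prkg1 had too few reads. The median log2 ratio was -0.30 over the 8 genes and -0.01 over all genes with at least 20 reads. Platelet markers also lay mostly under 1, with a median of -0.18. Of the 17 such markers with at least 20 reads, 3 lay above 1, and 1 fell, Thbs1 at 0.160. Scaled by total reads, median of ratios or upper quartile, only Gucy1a1 and Pde3a of the set fell, beside 1.51%, 1.61% and 1.67% of all genes. Scaled on the summed reads of the 18 platelet markers, Thbs1 among them, Pde3a alone of the set fell.

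In the authors' deposited table, Pde3a had a log2 fold change of -1.79 (p = 3.04e-05, adjusted p = 0.00337), Gucy1a1 -1.43 (p = 0.00112, adjusted p = 0.0356) and Gucy1b1 -1.05 (p = 0.0112, adjusted p = 0.148). For the other 5 genes the adjusted p in the authors' deposited table ran from 0.480 for Pde5a to 1.00 for Adcy6. No source used here names the test behind these p-values, which set 1 library against 1 other.

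**Figure D2:**
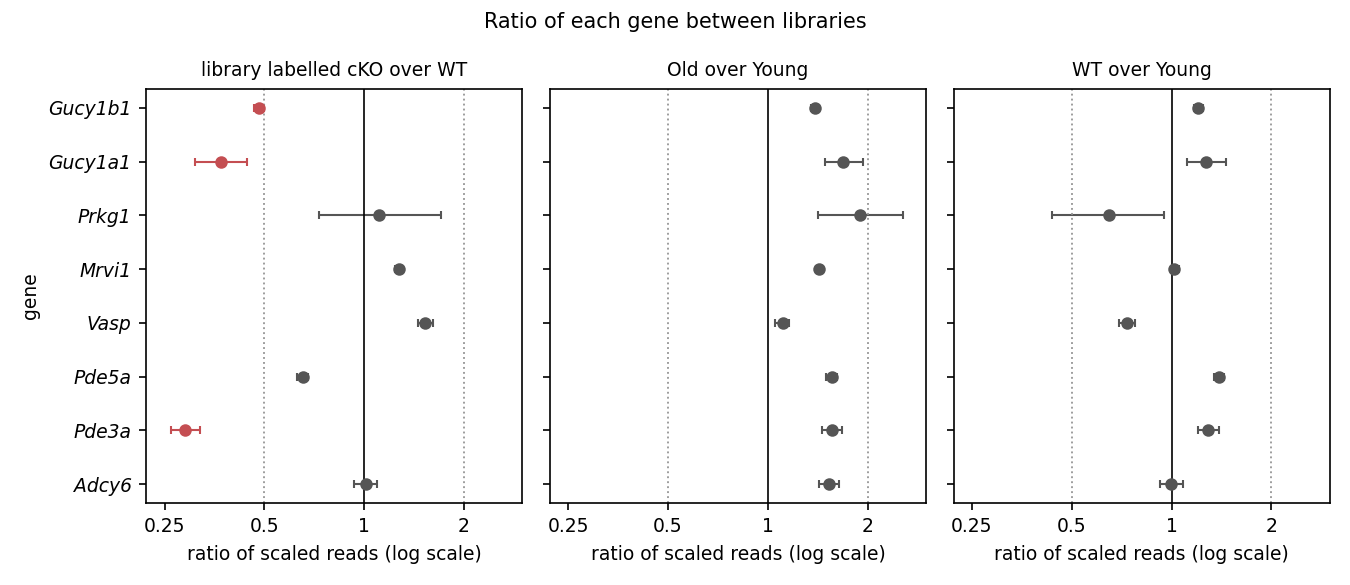
Ratio of each of the 8 genes between libraries (log axis), in 3 panels, with exact 95% intervals for counting error; solid line at 1, dotted lines at 0.5 and 2, red for genes that fell. Red points are found for Gucy1b1, Gucy1a1 and Pde3a in the first panel only, and all 8 points of the second panel lie right of 1, Vasp to its left when scaled by total reads or platelet markers.

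In the comparison of age, all 8 ratios of Old to Young lay above 1 (Vasp under 1 when scaled by total reads or platelet markers), though 0 of the 8 rose by the 2-fold bound; over all 6519 genes with enough reads, 4.26% rose. At a bound of 1.5-fold Pde5a alone rose, beside 10.4% of the genes. Prkg1 had the highest ratio, 1.90 (1.42 to 2.56), on 132 against 76 reads. Gucy1a1 was at 1.69 (1.49 to 1.93), Pde5a at 1.56 (1.5 to 1.62), Pde3a at 1.56 (1.46 to 1.67) and Adcy6 at 1.53 (1.43 to 1.64). Gucy1a1, both phosphodiesterases and Adcy6 thus lay close together. Mrvi1 was at 1.43 (1.40 to 1.46), Gucy1b1 at 1.39 (1.35 to 1.43) and Vasp lowest at 1.11 (1.05 to 1.16), the only one of the 8 that crossed 1 with the scaling (0.821 to 1.22).

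The median log2 ratio over the 8 genes was 0.63, beside -0.06 over all genes, of which 5522 of 11694 with at least 20 reads lay above 1. The 18 platelet markers lay mostly on the same side, with a median of 0.57 and 15 of 18 above 1, and held 6.78% of reads in Young and 8.19% in Old; Tubb1, the platelet tubulin, was the 1 marker that rose. Neutrophil markers rose in 11 of the 11 with enough reads (median 5.82), and their summed share was 0.00315% of reads in Young and 0.0841% in Old. Endothelial markers rose in 1 of 7 with enough reads, Flt1 at 4.95 (median 0.49). Monocyte markers rose in 4 of 7 (median 1.52), B cell markers fell in 5 of 8 (median -1.55) and T and NK cell markers fell in 2 of 6 (median -0.92). The summed monocyte share was nonetheless 0.353% in Young and 0.258% in Old, most of it Lyz2, with 63478 and 46508 reads. Of all genes with enough reads, 4.26% rose and 4.30% fell. Scaled on the platelet markers, the median over the 8 genes was 0.20 and that over all genes -0.48. The part of these shares of other transcripts in the ratios was not tested. In the authors' deposited table Prkg1 had p = 0.0458 and adjusted p = 0.171, Gucy1a1 p = 0.0729 and adjusted p = 0.230, and the other 6 had adjusted p from 0.320 to 0.870.

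**Figure D3:**
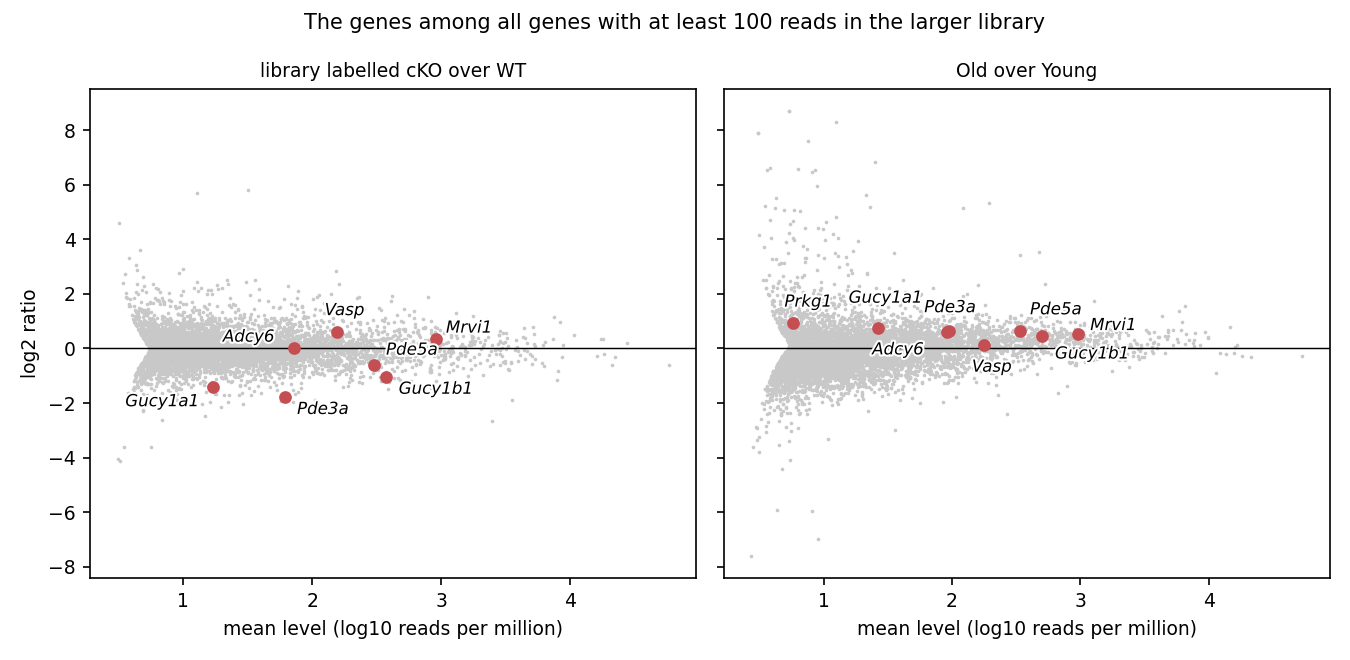
Log2 ratio against mean level (log10 RPM over scaled library sizes) for every gene with 100 reads or more in 1 of the 2 libraries, in grey, with the measured genes in red; Prkg1 lacks the reads to be drawn at left. Pde3a, Gucy1a1 and Gucy1b1 lie along the lower edge of the cloud at left, and all 8 genes lie above 0 at right, Vasp below it when scaled by total reads or platelet markers.

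The 2 young wild-type libraries, WT and Young, give the distance between pools that share age and stated genotype. In WT over Young, 0 of the 7 genes with enough reads rose or fell, beside 1.00% of 6373 genes. The ratios were 1.27 (1.11 to 1.46) for Gucy1a1, 1.2 (1.17 to 1.24) for Gucy1b1, 1.29 (1.2 to 1.39) for Pde3a and 1.39 (1.34 to 1.44) for Pde5a. All 4 genes that were lowest in the library labelled cKO were thus higher in WT than in Young, by intervals that exclude 1. Prkg1 was at 0.647 (0.437 to 0.948), on 45 against 76 reads, and Adcy6 at 0.996 (0.922 to 1.08).

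This distance bears on both comparisons, since WT and Young each serve in 2 of them. Against Young, the library labelled cKO was at 0.592 (0.570 to 0.614) for Gucy1b1, which did not pass, as for Gucy1a1. Against WT, Old had 1.33 (1.17 to 1.51) for Gucy1a1, 1.16 (1.12 to 1.19) for Gucy1b1, 1.21 (1.14 to 1.29) for Pde3a and 1.12 (1.08 to 1.16) for Pde5a. These 4 genes were thus closer to 1 against WT than against Young. Prkg1 was at 2.94 (2.08 to 4.22) and rose in Old over WT, where 4.54% of 6328 genes rose, and Vasp was at 1.51 (1.43 to 1.59).

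Across the 4 libraries, Gucy1a1, Gucy1b1, Pde3a and Pde5a shared 1 order, with the library labelled cKO lowest, then Young, then WT, then Old, and each step exceeded counting error with the 4 libraries scaled together by trimmed means. Relative to the platelet markers the library labelled cKO was again lowest for all 4, but WT, not Old, was highest for Gucy1b1 (1.77 over the lowest) and Pde5a (1.30). Old over the library labelled cKO was 4.18 (3.79 to 4.62) for Pde3a, 3.59 (3.02 to 4.3) for Gucy1a1 and 2.40 (2.31 to 2.48) for Gucy1b1. Prkg1, Mrvi1, Vasp and Adcy6 each had another order. By Euclidean distance of centred log2 levels over the 4 libraries, among 5536 genes, the genes nearest to Pde3a were Layn (0.14), Pfkfb3 (0.24) and Pld2 (0.27). Those nearest to Gucy1a1 were Tuba1a (0.13), Rai2 (0.18) and Layn (0.20). Those nearest to Gucy1b1 were Zranb3 (0.06), Rab27b (0.09) and Plek (0.11), the last with 191069 reads in WT and 87467 in the library labelled cKO, with 162686 in Young and 197347 in Old. Those nearest to Prkg1 were Reep2 (0.06), F2rl3 (0.08) and Hipk2 (0.16). With 4 points for each gene, a small distance says only that the profiles lie close.

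The other genes of the pathway were taken as 7 lists of 93 genes in all. In the library labelled cKO over WT, 1 of 47 with enough reads rose and 1 fell, with a median log2 ratio of 0.18. Beside the 4.22% of all genes that rose or fell, this is a number near the background. Gnas, the stimulatory G-protein alpha subunit that switches adenylyl cyclase on, rose 2.38-fold (2.26 to 2.51), with 5005 against 2062 reads. Against Young it was at 1.29 (1.24 to 1.35) and did not pass. Rgs18, which shortens signalling by heterotrimeric G proteins, fell to a ratio of 0.270 against WT, and was at 0.498 (0.490 to 0.505) against Young without passing. Ptgir, the prostacyclin receptor, was at 1.70 (1.56 to 1.86), with 1362 against 786 reads. Among adenylyl cyclases Adcy5 was at 0.506 and Adcy9 at 0.688, and Prkar2b, a regulatory subunit of protein kinase A and the most-read gene of its list, was at 0.602 with 20046 against 32741 reads. Gnas was also at 0.530 in WT over Young, and Rgs18 at 1.80, so WT stood apart from Young for both.

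By role, the medians in the library labelled cKO over WT were 0.69 for receptors coupled to Gs and adenosine handling, 0.01 for Gs and Gi alpha subunits and 0.07 for the other adenylyl cyclases. They were 0.11 for the other phosphodiesterases and the exporter, -0.10 for protein kinase A subunits and anchors and 0.20 for other targets. The receptor median rests on 5 genes and the cyclase median on 4, of which only 2 each had enough reads, and both such cyclases, Adcy5 and Adcy9, were under 1. Gnai2, an inhibitory alpha subunit, was at 1.04 and Gnaz, another, at 0.583. The anchor Akap11 was at 0.568, the regulatory subunit Prkar1a at 0.887, the transcription factor Crem at 0.581, the adhesion protein Zyx at 1.26 and the small GTPase Rap1b, an integrin activator, at 0.707.

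Among makers of nitric oxide and cyclic GMP other than soluble guanylyl cyclase, 0 of 4 with enough reads changed in either comparison, beside 4.22% and 8.56% of all genes, with medians of 0.24 in the library labelled cKO over WT and 0.82 in Old over Young. Nos3, the endothelial nitric oxide synthase, had 11 reads in WT and 2 in the library labelled cKO, with 6 in Young and 0 in Old. Nos2, the inducible synthase, had 6 and 8 reads in WT and the library labelled cKO, with 0 in Young and 93 in Old, under the minimum of 100 reads; it rose where the minimum was 20 reads. Cyb5r3, the reductase that keeps haem iron in the reduced state, was at 1.15 and 1.77 in the same 2 comparisons, and Ddah2, which removes a nitric oxide synthase inhibitor, at 1.21 and 1.77. The disulfide isomerases P4hb and Pdia3 were at 1.14 and 2.09, and at 0.679 and 1.35. Against WT in place of Young, Cyb5r3 at 2.36, Ddah2 at 2.37 and P4hb at 2.21 rose in Old, beside 4.54% of all genes, and P4hb also rose in Old over Young with upper-quartile scaling. Of the ecto-enzymes that make adenosine, Nt5e was at 0.583 and 1.37 and Entpd1 at 0.954 and 1.73.

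In Old over Young, 0 of 48 pathway genes with enough reads rose and 2 fell, with a median of 0.05, beside 4.26% and 4.30% of all genes, so the number that fell was near the background. Abcc4, an exporter of cyclic nucleotides, was at 0.252 of its Young level (0.225 to 0.281; 393 and 1709 reads). Pde7a, a cyclic AMP phosphodiesterase, was at 0.395 (0.322 to 0.482; 135 and 374 reads); it lost its call with upper-quartile scaling and against WT, where it was at 0.666 (0.532 to 0.833), while Abcc4 was at 0.248 (0.222 to 0.277) against WT. Pde7b was at 1.04, so the 2 Pde7 genes differed. The medians were 0.34 for receptors coupled to Gs and adenosine handling, 0.49 for Gs and Gi alpha subunits, 0.74 for the other adenylyl cyclases and -0.06 for the other phosphodiesterases and the exporter. Adcy9 was at 1.87, Adcy5 at 1.5, Gnaz at 1.6 and Ptgir at 1.17. Lists of protein kinase A subunits and anchors (median 0.02) and of other targets (median -0.09) lay near the median of all genes, with Prkar2a at 2.15 and Akap10 at 0.365 in the first, and Itpr3 at 0.460 and Enah at 0.552 in the second.

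**Figure D4:**
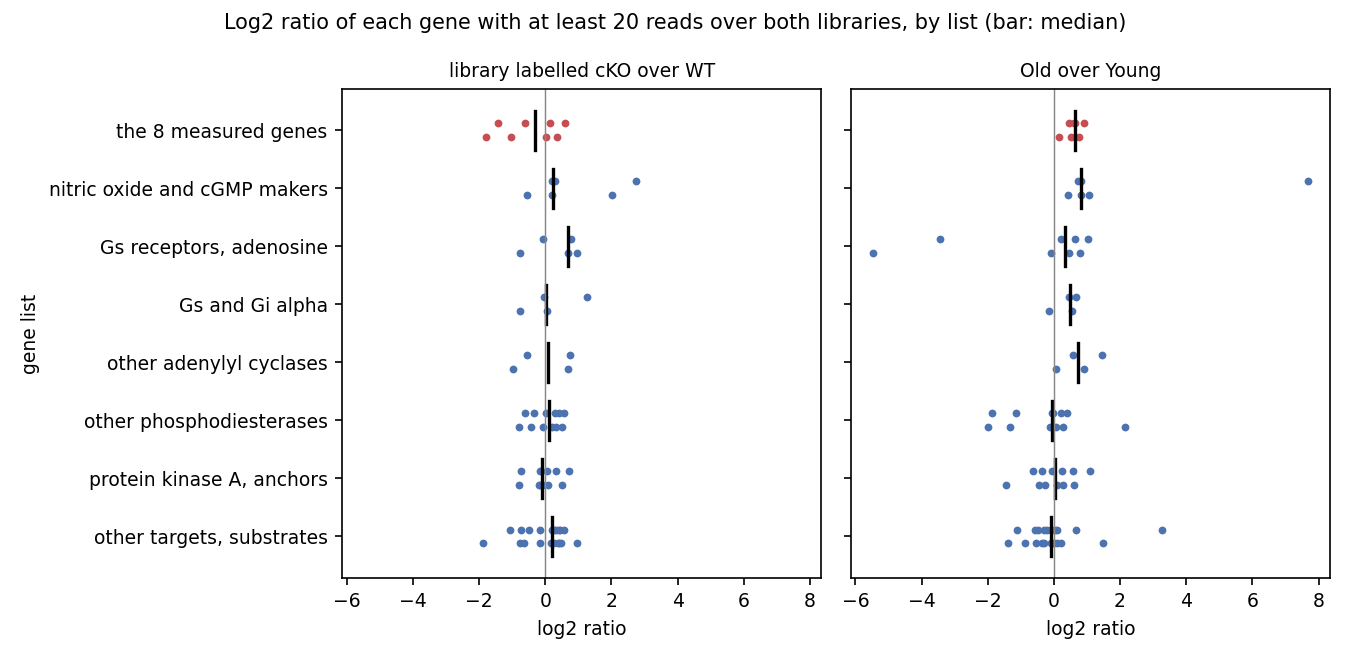
Log2 ratio of each gene with at least 20 reads over both libraries, 1 point a gene, by list, with bars at the medians. The median of the 8 measured genes (red) is -0.30 at left and 0.63 at right, and the lists of kinase subunits and other targets centre near 0 in both panels.

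Several of the genes are also expressed in smooth muscle, so its markers are given beside them. The 15 smooth muscle and pericyte markers took 0.143% of reads in WT and 0.219% in the library labelled cKO, with 0.143% in Young and 0.133% in Old. Most of this was Mylk, with 23846, 35464, 23490 and 21109 reads. Myocd and Lmod1 had no row in either table, and Acta2 was at 0 in Old. In Old over Young, 1 of the 3 markers with enough reads rose, beside 4.26% of all genes, and the list median was 0.29. This was Cnn1, at 3.05 with 212 against 76 reads. In the library labelled cKO over WT, 2 of the 4 markers with enough reads rose, Cnn1 and Kcnmb1, with the median of the list at 0.92. Erythroid markers rose in 11 of 13 and fell in 1, Hba-a2 at 0.437, in the same comparison. Of all genes with enough reads there, 2.52% rose and 1.71% fell. The part of either cell type in the ratios of the 8 genes was not tested.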

How the data were processed

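Platelet RNA of 4 groups of mice was sequenced in 1 library each. The submitters' processing notes name build mm10, DESeq2 1.20.0, featureCounts 1.5.0-p3, HISAT2 2.0.5 and CASAVA, with no role or order. No source used here gives the handling of strand or shared reads. The authors deposited 2 tables of normalised signal per gene and library, and added log2 fold changes. Raw and adjusted p-values stand beside them, per the file headers. Within each library the deposited signal was a whole number of reads times 1 step plus a small constant, and 100.00% of values came out whole within 0.02 read. The design assumed counts; the recovered reads were used, and no count test was run because 1 library per group leaves no spread to estimate. A further 4 per-sample columns match no sample by name and were not used.

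Library sizes were scaled by trimmed mean of M values (TMM; edgeR 4.0.16, R 4.3.3) for each pair, over the 14652 genes in both tables where a pair crosses them, since the authors scaled the tables separately. Ratios carry exact 95% Clopper-Pearson intervals (scipy 1.17.1) of a gene's share of reads between 2 libraries; levels carry exact Poisson intervals. RPM and RPKM use total reads and the deposited gene lengths. Log2 ratios use a pseudocount of 0.5 read, and list medians use genes with at least 20 reads over both libraries. Scripts were tested on simulated data. Alternatives were scaling by total reads, DESeq2 1.42.0 median of ratios, upper quartile or platelet markers, other minimums and bounds, and, chosen after the data were seen, the other young library as control.

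The genes, the pathway and marker lists and the CCAAT search were chosen with earlier results of these data, or the sequences, known. Besides the 9 genes, each pathway list contributed every gene that rose or fell, the 2 with most reads and the 2 with the largest ratio per comparison; each marker list contributed the markers absent from every library and the 3 with most reads. Nos2, Nos3, Prkaca, Prkacb, Gucy1a2, Tubb1, Thbs1, Gp1bb, Flt1, Kcnmb1 and Acta2 were named after their values were seen. The 3 nearest profiles were sought for genes spanning at least 1 log2 unit.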

Additional observations from a re-analysis of the deposited data

How the results depend on the processing

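No paired analysis was possible because each group has 1 library, and for the same reason no library could be left out in turn. Of the set, 3 genes fell in the library labelled cKO over WT. With scaling by total reads, median of ratios or upper quartile the number was 2 (Gucy1a1 and Pde3a). It was 1 with platelet-marker scaling (Pde3a), 0 at a 4-fold bound (beside 0.112% of all genes) and 1 with Young as control (Pde3a). Against 0 that rose in Old over Young, it was 1 at a 1.5-fold bound (Pde5a) and 1 with WT as control (Prkg1). Of the other pathway genes, 2 changed in the library labelled cKO over WT, and 4 did with no minimum of reads, 7 at a 1.5-fold bound, 0 at a 4-fold bound and 0 with Young as control. In Old over Young 2 changed, and 4 did with scaling by total reads, 6 by platelet markers, 7 with a minimum of 20 reads, 8 with none, 12 at a 1.5-fold bound, 0 at a 4-fold bound and 7 with WT as control. In WT over Young 0 changed, and 1 did with platelet-marker scaling, 1 with a minimum of 20 reads, 1 with none and 3 at a 1.5-fold bound. Fewer or more genes enter under other minimums and bounds by construction; for the scalings and controls the cause was not tested. No called direction reversed. Platelet-marker scaling moved the median log2 ratio of all genes tested to 0.22, -0.48 and -0.20 in the library labelled cKO over WT, Old over Young and WT over Young, from -0.01, -0.06 and 0.00; total reads moved the last 2 to -0.21 and -0.12, and upper quartile moved Old over Young to 0.09. Among calls over all genes, the share that rose in the library labelled cKO over WT was 59.6% (158 rose, 107 fell) and 84.8% with platelet-marker scaling; in Old over Young it was 49.8%, 34.6% by total reads, 68.1% by upper quartile and 14.7% by platelet markers; in WT over Young it was 43.8%, 23.9% by total reads and 13.5% by platelet markers. Prkg1 alone of the 8 genes had under 100 reads in any library, with 45 to 132. Gucy1a1, with 165 reads in the library labelled cKO, lost its call at 0.435 by platelet markers and at 0.481 against Young. Both ratios lay beyond 2-fold, but their counting intervals crossed that bound.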
